A study of Mus musculus with 2 samples.

Results

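CC chemokines are small secreted proteins that draw leukocytes along a gradient and act through G protein-coupled CC receptors. The 9 genes described here are the ligands Ccl2, Ccl3, Ccl4, Ccl5, Ccl6, Ccl9, Ccl17 and Ccl22 and the receptor Ccr2, picked by symbol from the 32285 genes of the count matrices. All 9 were found. Each ligand was followed to the cells that held its transcripts, and the receptor to the cells that carried it, in lungs of nanoparticle-treated and saline-treated tumor-bearing mice.

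Lungs came from female BALB/cJ mice bearing the 4T1 mammary carcinoma line for 14 days. Their age is given as 12 weeks, which in the methods of the study is the age at inoculation. The NP group received intravenous particles of the polymer PLG without drug cargo every 3 days from day 1, and the saline group received intravenous saline on the same schedule. Each group was 1 single-cell library, pooled from 4 mice per the labels, while the methods of the study give another number of mice. There were no replicates, so no test was made, and every 95% interval below covers counting error only.

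The saline library held 91168129 unique molecular identifiers (UMIs, 1 per captured transcript molecule) and the NP library 90081747. Barcodes were used as cells where 500 to 5000 genes had a UMI and mitochondrial transcripts took less than 7.5% of the total, which left 8662 saline and 8333 NP cells with medians of 6474.5 and 6008 UMIs. The libraries shared 21 of the kept cell barcodes. Clusters made without any CC chemokine or CC receptor gene were named from marker genes, so that neutrophil here means neutrophil-like, and likewise for the other 16 names. Neutrophils were 64.2% of saline and 36.9% of NP cells, and classical monocytes were 8.32% and 14.4%. The largest NP neutrophil clusters were not the largest saline ones, and one of them was led by Gbp2b, Isg15 and Cxcl10, genes of the interferon response. Levels are pooled over the cells of a class and scaled to 1000000 UMIs (CPM), and a change is the log2 ratio of NP over saline CPM, in which a count under 3 was set to 3. A member is named for a class where it had at least 20 UMIs over both libraries, and a ratio past 2-fold in either direction is given beside the share of all genes of that class that passed it.

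Ccl2 signals through CCR2, the receptor that brings inflammatory monocytes out of the bone marrow and into tissue. Ccl3, Ccl4 and Ccl5 attract monocytes, NK cells and T cells, and Ccl3 and Ccl5 bind CCR1. Ccl6 and Ccl9 are CCR1 ligands found in rodents, and Ccl17 and Ccl22 attract CCR4-bearing T cells. On GRCm38, Ccl2 lies at chr11:82035571-82037453, and Ccl5 (chr11:83525778-83530518), Ccl9 (chr11:83572919-83578636), Ccl6 (chr11:83587882-83593087), Ccl3 (chr11:83647844-83649355) and Ccl4 (chr11:83662584-83664683) lie together further along the same chromosome. Ccl22 (chr8:94745590-94751699) and Ccl17 (chr8:94810453-94812036) are neighbors on chromosome 8, and Ccr2 is at chr9:124101950-124113557.

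Promoter windows from RefSeq on GRCm38.p6, running from 250 bases before to 50 bases after the transcript start, were held for 6 of the 9 genes, the exceptions being Ccl2, Ccl4 and Ccl5. They are shown for 2 pairs of neighbors, Ccl6 and Ccl9, which most classical monocytes carried together, and Ccl17 and Ccl22, which share a receptor. The windows of Ccl6 (chr11:83593038-83593337, minus strand) and Ccl9 (chr11:83578587-83578886, minus strand) shared a run of 13 bases, in capitals, which was the longest run shared by any pair of the 6 windows. For Ccl17 (chr8:94810203-94810502, plus strand) and Ccl22 (chr8:94745434-94745733, plus strand), capitals mark the ETS core AGGAAG on either strand, which 35.4% of the 32851 windows of the table held, so that a match is common. The Ccl6 window held this core too, 73 and 47 bases before the start, the latter overlapping its run in capitals.
Ccl6: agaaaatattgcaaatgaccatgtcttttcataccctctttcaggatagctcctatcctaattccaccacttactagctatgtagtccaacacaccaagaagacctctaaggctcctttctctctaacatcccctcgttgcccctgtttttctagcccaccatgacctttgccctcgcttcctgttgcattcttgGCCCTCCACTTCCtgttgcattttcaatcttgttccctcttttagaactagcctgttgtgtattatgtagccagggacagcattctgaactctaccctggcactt
Ccl9: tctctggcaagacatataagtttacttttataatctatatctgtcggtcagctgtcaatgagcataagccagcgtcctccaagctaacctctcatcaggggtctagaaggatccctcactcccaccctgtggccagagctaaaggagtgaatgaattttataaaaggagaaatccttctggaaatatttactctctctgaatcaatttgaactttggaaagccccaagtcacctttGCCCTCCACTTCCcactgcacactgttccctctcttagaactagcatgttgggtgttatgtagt
Ccl17: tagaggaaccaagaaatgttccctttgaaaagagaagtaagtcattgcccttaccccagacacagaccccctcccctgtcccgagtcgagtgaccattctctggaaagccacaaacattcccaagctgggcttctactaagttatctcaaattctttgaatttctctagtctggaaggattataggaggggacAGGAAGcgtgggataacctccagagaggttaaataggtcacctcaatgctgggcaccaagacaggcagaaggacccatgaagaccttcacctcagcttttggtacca
Ccl22: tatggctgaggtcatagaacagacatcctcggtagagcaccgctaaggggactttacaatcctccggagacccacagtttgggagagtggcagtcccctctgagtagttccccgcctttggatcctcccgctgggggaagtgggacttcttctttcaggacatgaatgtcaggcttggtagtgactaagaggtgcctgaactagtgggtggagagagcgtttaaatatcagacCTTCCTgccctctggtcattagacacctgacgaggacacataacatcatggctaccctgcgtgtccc
Of the other motifs searched on both strands, the NF-kB element GGGACTTT was found in Ccl22 alone of the 6 windows, 203 bases before the start, and in 1.38% of all windows. The TATA box TATAAA was found in Ccl9 alone (13.6% of all windows), 224, 94 and 92 bases before the start. The matches at 94 and 92 bases, on opposite strands, overlapped each other. The AP-1 site TGANTCA was found in Ccl9 alone (7.81%) and the GAS element TTCNNNGAA in Ccl17 alone (8.30%). The full NF-kB site (1.47% of all windows) and the C/EBP site TTGCNNAA (10.8%) were in none of the 6.

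The members fell into 4 patterns of source. Over both libraries basophils held the most Ccl3 and Ccl4 transcripts of any named class, although in saline neutrophils held more Ccl4 (5110 against 3231 UMIs) and although they were 21 saline and 39 NP cells, NK cells held most Ccl5, myeloid cells held Ccl2, Ccl6, Ccl9 and Ccr2, and a handful of dendritic cells held Ccl17 and Ccl22. In 5 of the 9 genes, the class with the largest number of UMIs was also the class with the highest share of cells with a UMI after each cell was thinned to 1000 UMIs. The exceptions were Ccl2, Ccl6, Ccl9 and Ccl17, for which interstitial macrophages, alveolar macrophages, basophils and mature dendritic cells led by share.

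**Figure D1:**
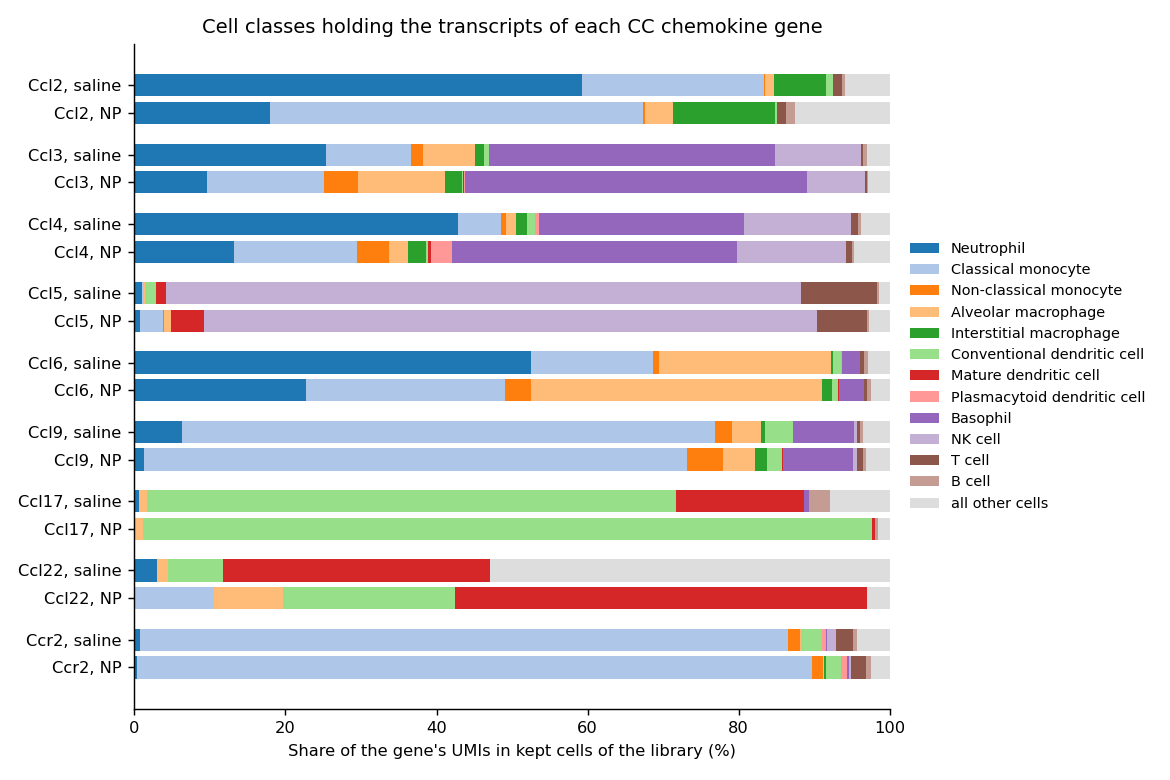
Horizontal bars give the percent of each gene's UMIs, over the kept cells of a library, held by each cell class. Saline is above NP for each gene. Basophils held 37.9% of saline and 45.3% of NP Ccl3, NK cells over 80% of Ccl5 in both libraries, and classical monocytes over 85% of Ccr2 in both, while the neutrophil share of Ccl2 went from 59.2% to 18.0%.

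Ccl3 and Ccl4 were highest per cell in basophils. In saline basophils Ccl3 stood at 11051 CPM (1925 UMIs in 21 cells), and in NP basophils at 19744 CPM (5318 UMIs in 39 cells). The cells ranged from 10.6 to 294 Ccl3 UMIs per 10000 UMIs in saline, with a median of 124, and from 0 to 575 in NP, with a median of 194. The ranges overlapped widely, and the pooled log2 ratio was 0.84 (95% interval 0.76 to 0.91). Ccl4 was at 18548 CPM in saline and 29011 CPM in NP basophils, a log2 ratio of 0.65 (0.59 to 0.70). Its per-cell medians were 187 and 264 per 10000 UMIs, with ranges of 0 to 470 and 2.05 to 963. All but 1 saline and 1 NP basophil carried both genes, with 1.68 Ccl4 UMIs per Ccl3 UMI in saline and 1.47 in NP.

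Mcpt8 and Prss34, proteases of basophils, led that cluster, and the summed level of basophil markers was 17234 CPM in saline and 16755 CPM in NP, with none of the 10 at 0. Neutrophil markers in the same cells were lower in NP (20161 against 4470 CPM, 0 of 12 higher in NP, none at 0), and their part in the change was not tested. None of the 5 members measured in basophils passed 2-fold, against 4.76% of genes higher and 6.67% lower. Both Ccl3 and Ccl4 passed it under a mitochondrial limit of 10% (1.22 and 1.03) and at the coarser clustering (1.29 and 1.14). Basophils also held Ccl6 at 6389 and 5647 CPM and Ccl9 at 3255 and 3601 CPM, with log2 ratios of -0.18 (-0.29 to -0.07) and 0.15 (-0.01 to 0.30), and under those 2 settings Ccl6 had the opposite sign (0.20 and 0.25). Ccr2 was at 235 and 189 CPM there, with an interval that spanned 0.

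**Figure D2:**
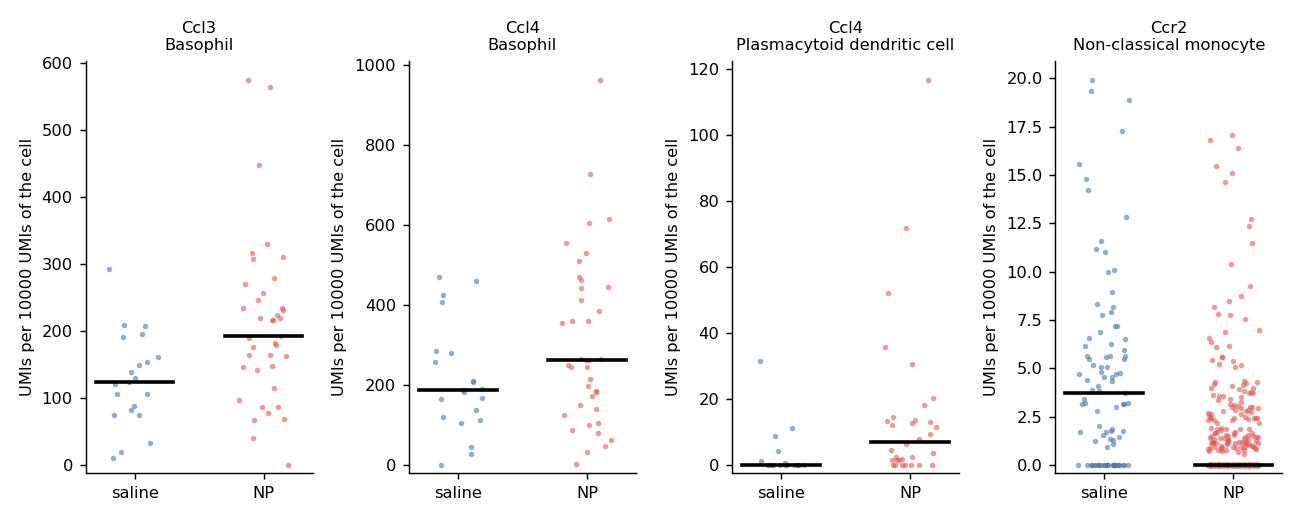
Points are single cells and black lines are medians, with UMIs of the gene per 10000 UMIs of the cell on linear axes that differ between panels. Medians were higher in NP for Ccl3 and Ccl4 in basophils and for Ccl4 in plasmacytoid dendritic cells, and the median of Ccr2 in non-classical monocytes was 3.73 in saline and 0 in NP.

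In classical monocytes, the circulating cells that follow Ccl2 into tissue, Ccl4 was at 58.0 CPM in saline and 169 CPM in NP (673 and 3365 UMIs), a log2 ratio of 1.54 (1.42 to 1.66). Ccl4 was detected in 15.7% of saline and 29.6% of NP classical monocytes, and after thinning in 2.50% and 9.61%. It was higher in NP in all 6 clusters with at least 100000 UMIs in each library. Ccl3 was at 49.5 and 91.5 CPM, a log2 ratio of 0.89 (0.75 to 1.02), and it too was higher in NP in all 6. Of the 7 members measured in classical monocytes, Ccl4 and Ccl5 passed 2-fold upward and none passed it downward, against 3.64% of genes higher and 1.54% lower, and the median log2 ratio of the members was 0.50 against -0.05 over all 11411 genes.

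Ccl5 in classical monocytes was at 4.39 CPM in saline and 42.9 CPM in NP, a log2 ratio of 3.29 (2.88 to 3.72), and rested on few cells. It was detected in 3.47% and 6.59% of the cells, and 1 NP cell held 139 of the 855 UMIs. A cluster of 1 saline and 22 NP cells, led by Cxcl9, Cfb and F10, held 186 of them, and without it the ratio was 2.96. NK cell markers in classical monocytes were at 8.27 CPM in saline and 35.5 CPM in NP (8 of 9 higher in NP), and mature dendritic cell markers at 40.9 and 70.6 CPM (7 of 9 higher). Their part in the Ccl5 value was not tested.

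Non-classical monocytes, which patrol vessel walls, went from 1.07% to 4.20% of cells. Their Ccl4 level was 117 CPM in saline and 283 CPM in NP, a log2 ratio of 1.28 (0.94 to 1.63). One saline cell held 46 of the 77 saline UMIs, and without the top cell of each library the ratio was 2.38. Ccl3 was at 119 and 171 CPM (log2 ratio 0.53, 0.18 to 0.89). Of the 6 members measured, Ccl4 and Ccl5 passed 2-fold upward and Ccr2 downward, against 3.44% of genes higher and 3.38% lower. Ccl5 there had 1 saline and 36 NP UMIs, and its log2 ratio of 1.36 was taken with the saline count set to 3.

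Plasmacytoid dendritic cells, known for producing type I interferon, showed the largest Ccl4 ratio among the classes with at least 20 UMIs in each library. They held 60 UMIs in 18 saline cells (299 CPM) and 596 UMIs in 32 NP cells (1539 CPM), a log2 ratio of 2.36 (1.98 to 2.77). Ccl4 was detected in 33.3% (13.3% to 59.0%) and 78.1% (60.0% to 90.7%) of the cells, and after thinning in 11.1% and 31.2%. Under a mitochondrial limit of 5% the ratio was 0.65, below 2-fold. The median cell had 0 and 7.13 UMIs per 10000, and the highest had 31.6 and 117. Ccl4 and Ccr2 were the members measured in this class, and Ccl4 alone passed 2-fold, against 6.04% of genes higher and 3.40% lower. Classical monocyte markers were at 5410 CPM in saline and 4929 CPM in NP in these cells (4 of 9 higher, F13a1 at 0).

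Alveolar macrophages, the resident phagocytes of the airspace, held more Ccl3 in NP (308 CPM) than in saline (122 CPM), a log2 ratio of 1.34 (1.17 to 1.51). Ccl3 was detected in 34.5% of saline and 56.1% of NP cells, and after thinning in 6.13% and 14.8%. Ccl4 was at 58.5 and 119 CPM (1.03, 0.77 to 1.29) and Ccl2 at 5.92 and 14.7 CPM (1.31, 0.52 to 2.17), which changed sign to -0.25 by the mean over cells. The 4 members past 2-fold, all upward, were Ccl2, Ccl3, Ccl4 and Ccl5 of 7 measured, against 1.80% of genes higher and 1.35% lower. The members' median was 1.03, which is the Ccl4 ratio, against -0.04 over all 9859 genes. A cluster of 3 saline and 9 NP cells within this class, led by Il10, Cfb and Mrc1, decided Ccl5 and Ccl4. It held 261 of the 271 NP Ccl5 UMIs. Without it the log2 ratio of Ccl5 went from 3.48 to -1.23 and that of Ccl4 to 0.38. Ccl3 stayed at 1.33 and Ccl2 at 1.72, and they alone of the 7 were then past 2-fold upward. Ccl6, Ccl9 and Ccr2 were at 0.19, 0.04 and 0.21 without this cluster. Ccl4 was 2.47 with doublets removed and 1.80 without the top cell of each library. The stress list that marks tissue dissociation stood at 6646 CPM in saline and 8214 CPM in NP alveolar macrophages, with 14 of 18 genes above 0 and a median of 0.35, and its part was not tested.

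Neutrophils held little Ccl3 and Ccl4, and 4495 of 5559 saline and 2583 of 3078 NP cells carried neither. Both genes were in 126 saline and 82 NP cells, Ccl3 alone in 296 and 154, and Ccl4 alone in 642 and 259. Ccl3 was at 26.9 CPM in saline and 46.9 CPM in NP (log2 ratio 0.80, 0.68 to 0.92). Ccl4 was at 107 and 114 CPM (0.09, 0.03 to 0.16). Neither change was shared across the 9 neutrophil clusters, since each gene was higher in NP in 3 of them. The cluster led by interferon-response genes, with 35 saline and 498 NP cells, held 404 of the 1127 NP Ccl3 UMIs and 954 of the 2745 NP Ccl4 UMIs. Its Ccl4 level was 382 CPM in NP, and without it the ratio of neutrophil Ccl3 was 0.32 and that of Ccl4 was -0.36, with the opposite sign. Of the neutrophil Ccl3 difference, 12.8 CPM came from the share of UMIs held by each cluster and 7.19 CPM from levels within clusters. For Ccl4 these parts were 27.8 and -20.6 CPM.

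**Figure D3:**
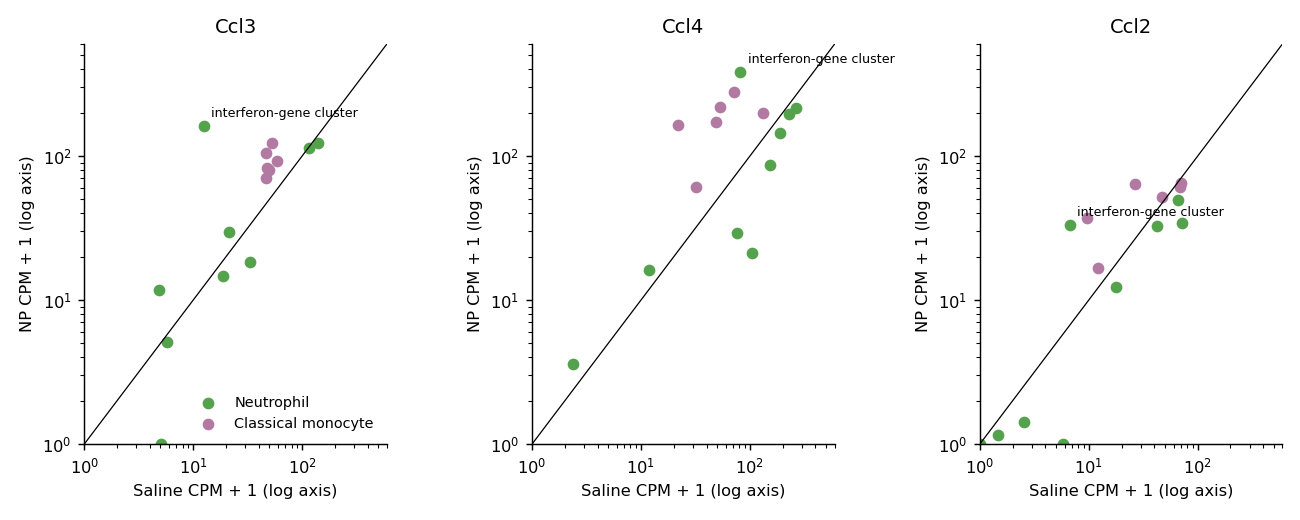
Each point is a cluster with at least 15 cells in each library, at its saline (x) and NP (y) CPM plus 1 on log axes, with the line of equal levels drawn. Classical monocyte clusters lie above the line for Ccl3 and Ccl4, while most neutrophil clusters lie on or below it for Ccl4 and the cluster led by interferon-response genes lies far above it.

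NK cells, which respond to Ccl5 and secrete it, held 84.0% of saline and 81.1% of NP Ccl5. The level was 24230 CPM in saline (16068 UMIs in 127 cells) and 25792 CPM in NP (23209 UMIs in 140 cells). Every NK cell had a Ccl5 UMI, with medians of 253 and 265 per 10000 UMIs and ranges of 14.96 to 616 and 2.86 to 948, and the ratio was 0.09 (0.06 to 0.12). That ratio is a factor of 1.06 (1.04 to 1.09), with doublets kept. Without cells called doublets the log2 ratio of NK cell Ccl5 was 0.00453 (-0.026 to 0.035). Ccl4 in NK cells was at 2538 and 3300.5 CPM (0.38, 0.29 to 0.47) and Ccl3 at 872 and 998 CPM (0.20, 0.04 to 0.35). With cells thinned to 1000 UMIs these ratios were 0.13 (-0.07 to 0.33) and -0.014 (-0.37 to 0.34). Without cells called doublets they were 0.27 (0.18 to 0.36) and 0.09 (-0.07 to 0.25). The NP cells were deeper, with a median of 5544.5 against 4415 UMIs. None of the 6 members measured in NK cells passed 2-fold upward and Ccr2 alone passed it downward, against 2.48% of genes higher and 3.27% lower.

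T cells were the next holders of Ccl5 in both libraries, with 545 and 625 CPM, most of it in a cluster of 156 saline and 168 NP cells at 1582 and 1487 CPM. Mature dendritic cells held Ccl5 at 12168 CPM in saline (253 UMIs in 4 cells) and 13540 CPM in NP (1240 UMIs in 8 cells), with an interval of the ratio from -0.04 to 0.36. Outside these classes, 1 cell held most of the Ccl5 in some classes, though not in NP endothelium, classical monocytes or neutrophils. In saline conventional dendritic cells 282 of 285 Ccl5 UMIs were in 1 cell, and that cell, called a doublet, also held 101 of the 124 Ccl17 UMIs and all 5 Ccl22 UMIs. In saline endothelium 117 of 130 Ccl5 UMIs were in 1 cell, which held 99 UMIs of NK cell markers where the median endothelial cell had 0. The top saline epithelial cell (88 of 89 Ccl5 UMIs) and fibroblast (55 of 56) held 145 and 111 such marker UMIs. In NP endothelium 1 cell held 108 of the 210 Ccl3 and 201 of the 374 Ccl4 UMIs, with 73 UMIs of basophil markers. Scrublet scores called both endothelial cells doublets and did not call the epithelial cell or the fibroblast.

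Over all kept cells Ccl2 stood at 18.8 CPM in saline and 23.9 CPM in NP, a log2 ratio of 0.35 (0.25 to 0.45), but the classes went in different directions. In classical monocytes it was at 30.3 and 42.9 CPM (0.50, 0.32 to 0.68), detected in 13.2% and 16.8% of cells. In neutrophils it was at 18.1 and 12.99 CPM (-0.48, -0.67 to -0.29), detected in 4.30% and 2.47%. It was lower in NP in 7 of the 9 neutrophil clusters, higher in the interferon-led cluster, and without a UMI in the remaining cluster. Neutrophils held 866 of 1462 saline UMIs but 312 of 1732 NP UMIs.

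The level of Ccl2 per UMI was highest in interstitial macrophages, C1q-positive phagocytes of the lung tissue, at 666 CPM in saline (102 UMIs in 15 cells) and 506 CPM in NP (234 UMIs in 34 cells). The interval of that ratio was -0.74 to -0.05, but it was 0.13 and 1.48 under mitochondrial limits of 5% and 10% and 0.89 at the finer clustering. Ccl7, a further CCR2 ligand, was in the same cells at 359 and 365 CPM, and its pattern over 15 classes in both libraries was the one most like Ccl2 (Pearson r 0.78 over 30 points that share 2 libraries, a description). In NP fibroblasts 77 of 82 Ccl2 UMIs, and in NP pericytes or smooth muscle 59 of 60, were in 1 cell.

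Ccl6 had the most transcripts of any member, with 46408 saline and 45979 NP UMIs, and was held by neutrophils, alveolar macrophages and classical monocytes. Neutrophils were at 511 CPM in saline and 436 CPM in NP, a log2 ratio of -0.23 (-0.26 to -0.20), where the median over all 11098 genes of the class was -0.12. The part of that difference from the share of UMIs held by each cluster was -86.0 CPM and the part from levels within clusters was 10.7 CPM, with Ccl6 higher in NP in 4 of the 9 clusters. Of the 7 members measured in neutrophils, Ccl5 alone passed 2-fold (4.17 and 8.91 CPM, 1.10), against 4.51% of genes higher and 3.07% lower. Ccl5 was detected in 3.11% and 3.41% of neutrophils. In B cells as a class it was detected in 3.06% and 0.95%, so the saline neutrophil share was at that level and the NP share above it. Over both libraries the larger B cell cluster was at 1.17% and the smaller at 5.19%, and both neutrophil shares lay between them. In NP, 1 neutrophil held 67 of the 214 UMIs.

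Alveolar macrophages were at 3671 and 4055 CPM of Ccl6 (0.14, 0.11 to 0.18), and 99.4% and 97.8% of them carried it. Classical monocytes were at 643 and 607 CPM (-0.08, -0.12 to -0.04). B cells, which are not known as a source, carried Ccl6 in 12.2% and 7.30% of cells and held neutrophil markers at 39151 and 22630 CPM. Endothelial cells had Ccl6 at 223 and 96.3 CPM, and neutrophil markers there were at 105606 and 41810 CPM, lower in NP for all 12. What part that RNA has in the endothelial Ccl6 value was not tested.

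Ccl9 was held by classical monocytes, with 70.5% of its saline and 71.97% of its NP UMIs. Its level there was 429 and 377 CPM (-0.19, -0.24 to -0.14), detected in 94.2% and 88.2% of cells. At a finer clustering the ratio in classical monocytes had the opposite sign for Ccl9 (0.12), Ccr2 (0.11) and Ccl6 (0.08). In classical monocytes 664 of 721 saline cells and 1025 of 1198 NP cells carried both Ccl6 and Ccl9, whereas alveolar macrophages held about 0.0257 Ccl9 UMIs per Ccl6 UMI in saline and 0.0253 in NP. Non-classical monocytes had Ccl9 at 248 and 158 CPM (-0.65, -0.91 to -0.38).

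Ccl17 and Ccl22, ligands of CCR4, were carried by very few cells. Ccl17 had 177 saline and 253 NP UMIs in all. In saline conventional dendritic cells the 5 cells that carried it, of 43, had 101, 11, 6, 4 and 2 UMIs. In NP the 5 carriers of 46 had 154, 50, 24, 10 and 6 UMIs. The share of carriers was thus 11.6% and 10.9%, while the pooled level was 175 and 341 CPM (0.96, 0.65 to 1.29). Without the top cell of each library the ratio was 1.95, and without cells called doublets, among them the top saline cell, it was 3.36.

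Ccl22 had 68 saline and 66 NP UMIs in all. Of 4 saline mature dendritic cells 3 carried it, with 16, 5 and 3 UMIs, and of 8 NP cells 5 carried it, with 14, 9, 7, 4 and 2 UMIs. The levels of 1154 and 393 CPM gave a log2 ratio of -1.55 (-2.34 to -0.74), over cells whose median depth was 3835 UMIs in saline and 14160 UMIs in NP. Of the 68 saline Ccl22 UMIs, 36 were in a single cell of an unnamed cluster, which was called a doublet. Among mature dendritic cells Ccl17 had 30 UMIs in saline, 28 of them in 1 cell, and 1 in NP. Of the 6 members measured in this class, Ccl3 and Ccl4, with 0 saline UMIs, passed 2-fold upward and Ccl17 and Ccl22 downward, against 16.8% of genes higher and 13.1% lower. In NP 1 cell held all 27 Ccl3 UMIs and 77 of the 78 Ccl4 UMIs. The dissociation stress list in this class had 7 of 11 measured genes past 2-fold upward and a median of 1.46, and its part was not tested. In conventional dendritic cells 1 of the 8 measured passed it upward (Ccl22, all of it in 1 cell of each library) and 3 downward (Ccl3, Ccl4 and Ccl5), against 2.53% and 3.67%. In saline 1 cell held 22 of the 31 Ccl3 and 106 of the 137 Ccl4 UMIs. The gene most like Ccl22 over classes was Ccl17 (r 0.93 over 30 points). Mature dendritic cells were not among those classes, which needed at least 100000 UMIs in each library. In conventional dendritic cells, which were among them, the 1 cell of each library with Ccl22 also held Ccl17, so the r rests on few cells.

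Ccr2, the receptor for Ccl2 and Ccl7, was carried by 98.8% of saline and 96.7% of NP classical monocytes, which held 85.8% and 89.4% of its UMIs. Its level there was 1599 CPM in saline and 1439 CPM in NP, a log2 ratio of -0.15 (-0.18 to -0.13), with per-cell medians of 15.8 and 14.1 UMIs per 10000 and ranges of 0 to 56.0 and 0 to 46.1. Almost all of that difference of -160.0 CPM came from the share of UMIs held by each monocyte cluster (-157 CPM), and the part from levels within clusters was -2.62 CPM. The gene most like it over classes was Ms4a6c (r 0.89), itself a marker used to name these cells.

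In non-classical monocytes Ccr2 was at 500.3 CPM in saline (329 UMIs in 93 cells) and 154 CPM in NP (473 UMIs in 350 cells). The log2 ratio was -1.70 (-1.91 to -1.49), and it was detected in 73.1% (62.9% to 81.8%) and 42.3% (37.1% to 47.7%) of the cells, although the NP cells were deeper, with a median of 8028.5 against 6333 UMIs. After thinning the shares were 30.1% and 10.9%. At the finer clustering the ratio was -0.32, no longer past 2-fold. Classical monocyte markers were at 3347 CPM in saline and 4327 CPM in NP in the same cells, with 4 of 9 higher in NP and none at 0. The median ratio over all genes of this class was -0.04.

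NK cells also held less Ccr2 in NP, at 383 and 138 CPM (-1.47, -1.80 to -1.16), but 37.8% and 34.3% of them carried it. The top saline NK cell held 58 of 254 UMIs, and without the top cell of each library the ratio was -1.26. T cells went the other way, at 140 and 201 CPM (0.52, 0.35 to 0.69), detected in 17.6% and 25.5%, but the ratio was -0.018 without cells called doublets. Conventional dendritic cells (817 and 910 CPM) and plasmacytoid dendritic cells (618 and 689 CPM) had intervals that spanned 0. In T cells 2 of the 7 members measured passed 2-fold upward, Ccl3 and Ccl9, against 2.50% of genes higher and 1.80% lower, at 13 and 23 UMIs for Ccl3 and 34 and 80 UMIs for Ccl9.

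**Figure D4:**
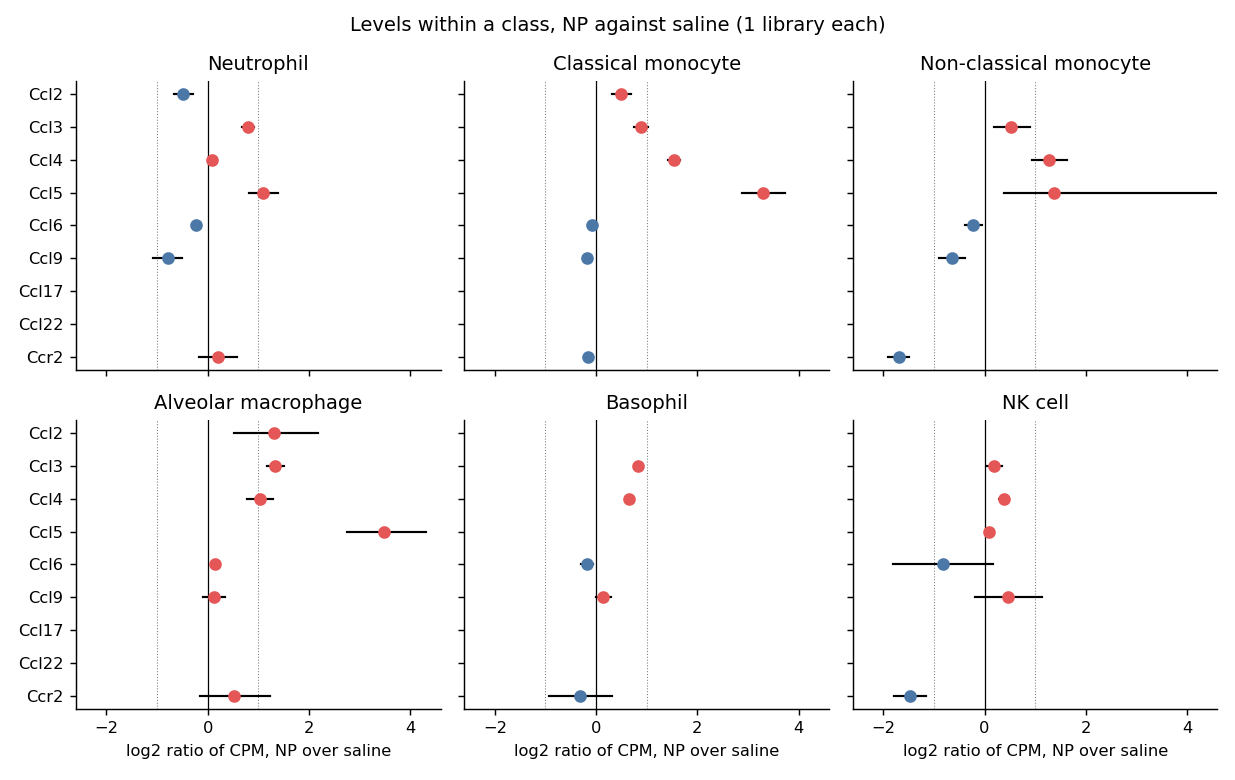
Points are log2 ratios of CPM, NP over saline, in 6 cell classes, with lines for the 95% counting interval and dotted lines at 2-fold, for members with at least 20 UMIs in the class. At the settings plotted, Ccl4 was past 2-fold upward in classical monocytes, non-classical monocytes and alveolar macrophages and not in neutrophils, basophils or NK cells. The alveolar macrophage Ccl4 ratio was 0.38 without a cluster of 3 saline and 9 NP cells. Ccr2 was past 2-fold downward in non-classical monocytes and NK cells.

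Over all kept cells of a library each member was higher in NP, although Ccl2, Ccl6 and Ccl22 were lower when cells were weighted equally, thinned or scaled by a size factor. The log2 ratio was 1.31 for Ccl3, 0.90 for Ccl4, 0.69 for Ccl5, 0.67 for Ccl9 and Ccr2, 0.62 for Ccl17, 0.35 for Ccl2, 0.09 for Ccl6 and 0.06 for Ccl22, the last with an interval that spanned 0. Without cells called doublets the ratio was 1.56 for Ccl22 (0.87 to 2.30) and 2.13 for Ccl17 (1.72 to 2.55). A single saline cell called a doublet held 36 of the 68 saline Ccl22 UMIs. The differences with doublets kept were split into a part from the share of UMIs held by each class and a part from levels within classes. The first part was the larger for 7 genes and the level part for Ccl3 and Ccl4. At the finer clustering the level part was also the larger for Ccl2 (3.76 against 1.38 CPM). Of the Ccl3 difference of 96.8 CPM, 38.4 CPM came from class shares and 58.3 CPM from levels, and of the Ccl4 difference of 133 CPM, 49.2 and 83.7 CPM. Basophils, 21 saline and 39 NP cells, gave 22.8 and 25.9 CPM of these parts for Ccl3 and 35.3 and 31.2 CPM for Ccl4. The class-share part of neutrophils was -10.4 CPM for Ccl3 and -31.2 CPM for Ccl4. Ccr2 was higher by 165 CPM, with 208 CPM from class shares and -42.6 CPM from levels, and the level part was 11.7 CPM at the finer clustering. The level part of Ccl17, 0.27 CPM, was -0.95 CPM there. Ccl6, Ccl9 and Ccl22 likewise had parts of opposite sign.

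**Figure D5:**
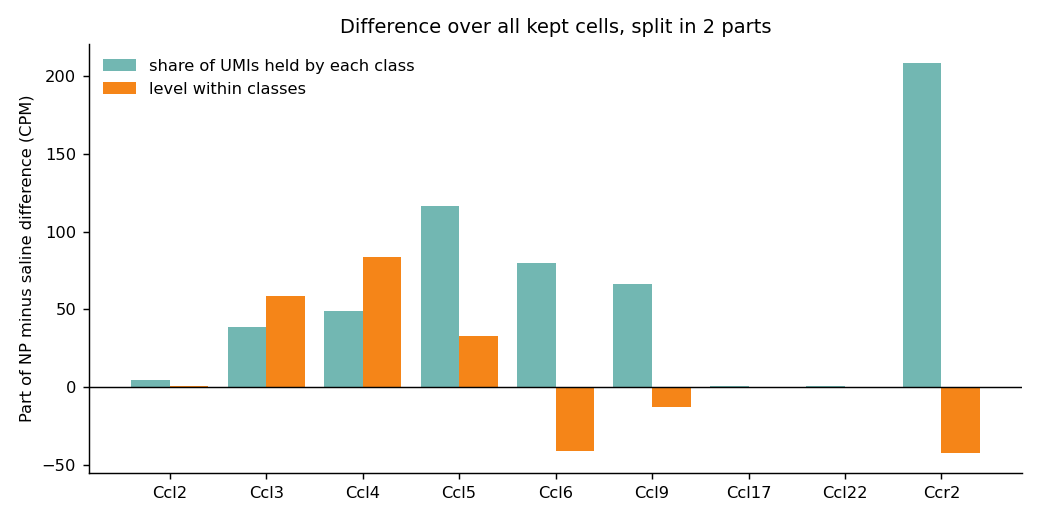
Bars give, per gene, the part of the NP minus saline difference over all kept cells (in CPM, linear axis) that came from the share of UMIs held by each class and the part from levels within classes. The level part was the larger for Ccl3 and Ccl4, and it was negative for Ccl6, Ccl9 and Ccr2, while the bars of Ccl2, Ccl17 and Ccl22 are under 5 CPM.

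B cells served as the reference for RNA picked up from the suspension, at median depths of 4593 and 4507.5 UMIs. The share of B cells with a UMI was 0.76% in saline and 0.79% in NP for Ccl2, 2.10% and 2.54% for Ccl3, 2.87% and 2.70% for Ccl4, 1.53% and 1.59% for Ccl9, and 3.63% and 2.86% for Ccr2. The neutrophil share with Ccr2, 2.66% in both libraries, was below that of B cells as a class. Over both libraries the B cell cluster of 410 saline and 531 NP cells was at 2.44% and the other B cell cluster at 6.60%. The neutrophil share lay between them and is not read as expression. For Ccl2, Ccl3, Ccl4 and Ccl9 the larger of these B cell clusters was at 0.32%, 1.70%, 2.02% and 0.11% over both libraries. The smaller was at 2.83%, 5.19%, 6.13% and 8.02%, with a median depth of 11485 against 4244 UMIs. The class shares above therefore mix unlike levels. Of the 7 members measured in B cells Ccl2 alone passed 2-fold, upward, with 14 of its 20 NP UMIs in 1 cell, against 1.55% of genes higher and 2.44% lower.

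In endothelium Ccl3 and Ccl5 of 7 measured passed 2-fold upward and Ccl2 and Ccl6 downward, against 4.40% and 2.83% of genes. Of the 210 NP Ccl3 UMIs there, 108 were in 1 cell called a doublet. In epithelium all 4 measured (Ccl4, Ccl5, Ccl6 and Ccr2) passed it downward, against 15.7% of genes higher and 3.53% lower. Each rested on 1 saline cell, which held 31 of 35 Ccl4, 88 of 89 Ccl5, 18 of 29 Ccl6 or 22 of 23 Ccr2 UMIs. In fibroblasts Ccl2 and Ccr2 of 5 passed 2-fold upward and Ccl5 downward, against 4.55% and 6.24%. There 1 saline cell held 55 of 56 Ccl5 UMIs, and 1 NP cell, called a doublet, held 21 of 39 Ccr2 UMIs. Another NP cell called a doublet held 77 of 82 Ccl2 UMIs. In pericytes or smooth muscle Ccl2 alone of 3 passed 2-fold, upward, against 5.61% higher and 4.96% lower. Saline had 0 Ccl2 UMIs there, set to 3, and 1 NP cell held 59 of the 60 in NP. None of the 6 measured in interstitial macrophages passed it, against 5.77% and 6.42%, and none was measured in lymphatic endothelium, where 7.53% and 7.98% of genes did.

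The other CC ligands and receptors were read as lists of 13 ligands, 10 receptors and 4 atypical receptors. In neutrophils 8 of these 27 genes were measured, 2 past 2-fold upward and 2 downward, against 4.51% and 3.07% of all genes. The gene with by far the most transcripts among the 4 was the atypical receptor Ccrl2, which binds chemerin without signaling, at 265 CPM in saline and 581 CPM in NP (1.13, 1.10 to 1.17), detected in 48.8% and 61.0% of neutrophils. The other 3 were Ccr7 upward (20 and 25 UMIs) and Ccl24 (110 and 23 UMIs) and Ccl20 (25 and 0 UMIs) downward. Within neutrophil clusters the Ccrl2 change was mostly smaller than the pooled one. It was at 336 and 516 CPM in the cluster of 1593 saline and 200 NP cells. In that of 293 and 718 cells it was at 1263 and 1785 CPM. The interferon-led cluster (35 and 498 cells) was at 685 and 1705 CPM, and that of 18 and 18 cells was lower in NP. The pooled Ccrl2 ratio was not split over clusters. Ccr1, the receptor for Ccl3, Ccl5, Ccl6 and Ccl9, was in 95.5% and 94.9% of neutrophils at 572 and 614 CPM (0.10, 0.07 to 0.13).

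In classical monocytes 8 of the 27 were measured, with Ccl7, Ccl12 and Ccr7 past 2-fold upward on at most 66 UMIs each and none downward, against 3.64% and 1.54% of all genes. Ccrl2 there was at 116 and 194 CPM (0.74, 0.65 to 0.83). In alveolar macrophages Ccr7 alone of 5 passed 2-fold upward, with 6 and 66 UMIs, against 1.80% of all genes, and in basophils none of the 2 measured did. In NK cells Ccl25 alone of 4 passed it downward (22 and 9 UMIs), against 3.27% of all genes, in conventional dendritic cells Ccl24 alone of 4 (40 and 16 UMIs), against 3.67%, and in mature dendritic cells none of 1. Ccr4, the receptor for Ccl17 and Ccl22, was at 9.91 and 10.5 CPM in T cells (0.08, -0.65 to 0.82).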

How the data were processed

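The deposited matrices hold raw UMI counts for every barcode of 2 lung libraries (saline, NP), which the authors made with Cell Ranger 6.0 on mm10 per the labels, although the matrix headers name an earlier Cell Ranger release. Cells with 500 to 5000 genes and under 7.5% mitochondrial UMIs were kept, scaled to 10000, log transformed, and clustered together (2000 variable genes without CC genes, 30 components, 20 neighbors, Leiden resolution 1) with numpy 2.4.6, scipy 1.17.1, scikit-learn 1.9.0, igraph 0.11.9 and leidenalg 0.10.2. Phagocyte clusters were clustered again. A cluster was named from fixed markers, and 90 saline and 114 NP cells stayed unnamed. Doublets were kept. CPM, ratios and exact binomial (Clopper-Pearson or conditional) 95% intervals came from pooled counts, and shares were also taken after each cell was thinned to 1000 UMIs. Methods were tested on simulated data. The genes named are every member in each class with at least 20 UMIs, the list genes past 2-fold in leading classes, and the genes most like a member. Other genes were chosen after their values were seen. Members, lists and markers were chosen with earlier results of these data known. Alternatives changed cell limits, doublets (Scrublet, scanpy 1.11.5), resolution, variable genes, scaling, free RNA and depth. Pooled mice within a library cannot be separated. A gene of the receptor list is not reported here.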

Additional observations from a re-analysis of the deposited data

Results flagged for a closer look

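Barcodes with under 50 UMIs hold RNA that was free in the suspension, and no comparison above used them. For 6 members their level was higher in the NP library than in the saline library beyond the counting interval. The log2 ratio was 0.88 for Ccl3 (72.4 and 134 CPM), 0.89 for Ccl4 (147 and 272 CPM), 0.44 for Ccl5 (361 and 489 CPM), 0.75 for Ccl9 (83.4 and 141 CPM) and 0.53 for Ccr2 (180.4 and 260 CPM). For Ccl22 the ratio was 1.56 against the floor of 3 counts, with 0 UMIs in saline and 9 in NP. The other members had intervals that spanned 0. When the estimated free RNA was subtracted, the class ratios recomputed stayed within their intervals except 2, Ccl5 in classical monocytes from 3.29 to 3.91 and Ccl9 in neutrophils from -0.79 to -1.13. In basophils the estimate was 0 in both libraries, so their Ccl3, Ccl4 and Ccl6 ratios could not move. Neutrophil markers in basophils were nonetheless at 20161 CPM in saline and 4470 CPM in NP.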

How the results depend on the processing

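No paired analysis was possible because each group was 1 library and no test was made. Of the values that answer a comparison, 95 stayed under an alternative, 30 moved and 2 changed sign. Of the other values, within classes or over all kept cells, 282 stayed, 104 moved and 20 changed sign. To stay meant to lie within the interval or, for counts and shares without an interval, within a fixed factor. A sign change was counted only where the main interval excluded equal levels. The share of genes past 2-fold in either direction was 20.8% with at least 1 UMI and 2.31% with at least 200, against 7.70%. The log2 ratios below are in the leading class of the gene unless another is named. With doublets removed, Ccl5 was 0.00453 and Ccl17 3.36, and in T cells Ccl5 was -0.33 and Ccr2 -0.018. With cells thinned, Ccl2 was 0.83, Ccl3 0.63, Ccl4 0.51 and Ccr2 -0.22, with -0.0141 for Ccl3 in NK cells and -0.42 for Ccl2 and -0.29 for Ccl6 over all cells. By the mean over cells, Ccl3 was 0.72 and Ccl4 0.53, with -0.25 for Ccl2 in alveolar macrophages and -0.31 for Ccl2 and -0.28 for Ccl6 over all cells. By a size factor, Ccl4 was 0.58, Ccl6 -0.10 and Ccr2 -0.11, with -0.0239 for Ccl2 and -0.28 for Ccl6 over all cells. Without the top cells Ccl17 was 1.95, and without the interferon-led cluster Ccl4 in neutrophils was -0.36. From 200 genes per cell, Ccl5 was 0.13, Ccl22 -3.86 and Ccr2 -0.0881, and from 800 genes Ccl17 was 0.63 and Ccl22 -3.37. Under a mitochondrial limit of 5%, Ccl17 was 1.52, Ccl22 -4.12, Ccl9 in neutrophils 0.15 and Ccl2 in interstitial macrophages 0.13. Under 10%, Ccl3 was 1.22, Ccl4 1.03, Ccl22 -4.70, Ccl6 in basophils 0.20 and Ccl2 in interstitial macrophages 1.48. At resolution 0.5, Ccl3 was 1.29, Ccl4 1.14, Ccl22 -3.90, Ccl9 in neutrophils 0.18 and Ccl6 in basophils 0.25. At resolution 2, Ccl2 was 0.19, Ccl9 0.12, Ccl22 -2.47 and Ccr2 0.11, with 0.0818 for Ccl6 in classical monocytes, 0.19 for Ccl9 in neutrophils and 0.89 for Ccl2 in interstitial macrophages. With CC genes among the variable genes Ccl22 was -4.53. Apart from the sets of cells and clusters these settings redraw, the cause was not tested. Scrublet's automatic limit called 1 saline cell and 311 NP cells, so the cells with the highest 6% of scores in each library were removed instead, an alternative chosen after seeing the data, as was leaving out named clusters.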
